A study of Mus musculus with 88 samples.

Results

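The Wnt ligands, receptors, and feedback genes are 48 genes that were chosen by family and role and not by a measured value. They comprise 19 ligands, 10 Frizzled receptors, 2 co-receptors, 6 secreted inhibitors, 4 TCF/LEF factors, and 7 targets or feedback genes, out of 53697 genes listed in the mesoderm series and 54393 in the endoderm series. After a filter on low counts, 29 of the 48 were tested in undifferentiated cells, 37 and 38 in the mesoderm and endoderm series, and 44 in bulk embryoid bodies (EBs). The filter read the counts of the compared libraries themselves, so the untested members are those with few or no reads there, and the counts below speak for the tested ones.

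RNA was measured in mouse embryonic stem cells (ESCs) that lack a subunit of Polycomb Repressive Complex 2 (PRC2), which methylates histone H3 and represses developmental genes. MTF2 belongs to one form of the complex, JARID2 to the other, and EED to the core of both. In the directed series, WT (strain E14), Mtf2 null, and Jarid2 null monolayers were sequenced undifferentiated and at 5, 24, and 48 h of culture toward mesoderm or endoderm, with 2 libraries per genotype, time, and series. In EBs, which differentiate without added lineage factors, bulk RNA was taken at days 2, 4, and 7 from 3 null lines. The day 0 samples of these lines are titled EB, but their columns are named mono where later days are named eb. Day 0 is therefore read as undifferentiated monolayer, and it is counted with the bulk EBs below. Each null line had a WT line of its own (Pcl1-3 WT for Mtf2, JM8 for Jarid2, J1 for Eed). Single cells of the 4 genotypes (E14 WT and the nulls for Mtf2, Jarid2, and Eed) were taken at days 0, 4, 7, and 10. There was 1 sample per line and day in bulk and 1 library per genotype and day in single cells. The bulk values held 46 columns for 24 samples. Columns of a line and day were added together, so duplicates among them do not count as replicates. All lines were kept in serum with LIF. The Mtf2 null line carries a gene-trap allele, and each null genotype is a line derived elsewhere, so in the directed series and in the single cells the genotype and the line cannot be told apart. The study's methods call the directed duplicates technical, so p-values for them measure only the spread between libraries.

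Wnt ligands bind a Frizzled receptor together with LRP5 or LRP6, which stops the destruction of beta-catenin, and beta-catenin then acts with TCF/LEF factors on target genes. Many targets feed back on the pathway: AXIN2 promotes beta-catenin destruction, NOTUM inactivates ligands, RNF43 and ZNRF3 remove Frizzled receptors, and DKK1 blocks the co-receptors. In the embryo the pathway is known for its part in forming the primitive streak, and in ESCs the repressor TCF7L1 limits self-renewal genes. For the first 24 h the medium of both directions contained CHIR99021, an inhibitor of the kinase GSK3 that activates the pathway inside the cell, together with Activin A and FGF2, with BMP4 and a higher dose of CHIR99021 in the mesoderm direction. CHIR99021 and FGF2 were withdrawn at 24 h. From then the mesoderm medium held BMP4 and an inhibitor of TGF-beta signalling in place of Activin A. The endoderm medium held Activin A and an inhibitor of BMP signalling. The 48 h libraries therefore differ from those at 24 h in several parts of the medium as well as in time, and these cannot be told apart.

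The upstream 250 bases of 3 members are shown. Sp5 rose to 24 h and in WT cells had no reads at 48 h. Dkk1 and Wnt11 were the members called higher in Mtf2 null cells in the most comparisons beside Wnt7b, which had no promoter entry. Sequences are from RefSeq (build GRCm38.p6), on the strand of each gene and ending at the base before its start. They lie at chr2:70474673-70474922 (+) for Sp5, chr19:30549497-30549746 (−) for Dkk1, and chr7:98834862-98835111 (+) for Wnt11. Capitals mark the letters CTTTGA on either strand (TCAAAG on the other), the core that TCF/LEF factors are known to bind.
Sp5: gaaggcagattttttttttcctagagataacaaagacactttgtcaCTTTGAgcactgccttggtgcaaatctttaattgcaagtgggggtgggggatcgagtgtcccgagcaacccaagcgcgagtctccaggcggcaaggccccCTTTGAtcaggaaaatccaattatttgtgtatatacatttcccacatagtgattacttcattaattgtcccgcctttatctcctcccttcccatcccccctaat
Dkk1: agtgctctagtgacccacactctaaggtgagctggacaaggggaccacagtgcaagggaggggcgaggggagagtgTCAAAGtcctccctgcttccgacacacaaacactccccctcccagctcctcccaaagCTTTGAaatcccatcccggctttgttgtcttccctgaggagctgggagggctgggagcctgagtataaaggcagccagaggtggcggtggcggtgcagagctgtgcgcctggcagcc
Wnt11: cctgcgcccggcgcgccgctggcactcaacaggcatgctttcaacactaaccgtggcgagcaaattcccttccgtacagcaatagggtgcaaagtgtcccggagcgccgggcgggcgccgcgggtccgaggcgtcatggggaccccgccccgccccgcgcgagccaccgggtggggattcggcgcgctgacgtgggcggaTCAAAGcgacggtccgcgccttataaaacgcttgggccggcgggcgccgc
The first bases of the marked stretches lie at positions -204 and -104 in Sp5, -174 and -117 in Dkk1, and -50 in Wnt11, counted from the start. RefSeq promoters were matched for 33 of the 48 members, taking the first listed start of each gene, and 4 of the 33 (12.1%) held the letters at least once, compared to 3797 of 27025 genes (14.0%). These were the genes shown and Fzd1. Axin2, Wnt3, Tcf7, and Fzd10, which also rose in the directed series, did not hold the letters there. A link between the letters and the levels was not tested. At least 2 copies were held by 2 members (6.06%) and by 391 of all genes (1.45%). The Wnt11 stretch held 37 CG dinucleotides and those of Sp5 and Dkk1 held 6 each, where the median was 23 over the members and 6 over all genes.

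The directed libraries held 9111902 to 16898283 reads in the mesoderm and 9889619 to 16372822 in the endoderm series, and levels are given as CPM (reads relative to the scaled library total), each table scaled on its own. The Mtf2 gene read 365 to 512 CPM in the 4 undifferentiated WT libraries and 30.4 to 34.2 in the 4 Mtf2 null libraries. The Jarid2 gene read 354 to 461 CPM in WT and 291 to 316 in the libraries labelled Jarid2 null, and over the 6 later comparisons its log2 difference ran from -0.68 (mesoderm, 24 h) to 0.19 (endoderm, 48 h). Reads outside a deleted part cannot check a deletion, and these libraries are named by their label. Same-numbered undifferentiated libraries of the 2 series differed by 1.63 to 2.53 times sampling noise, and others by 2.91 to 7.36 times, so the 4 libraries per genotype are not 4 independent cultures. In Mtf2 null cells, the summed CPM of 3 extraembryonic endoderm markers (Sox7, Dab2, Afp) was 56.7 to 61.5 undifferentiated and 188 to 290 at 48 h, compared to 7.84 to 11.7 and 6.40 to 11.2 in WT, with Afp near 0. In bulk RNA, fewer cells of a type and less RNA per cell cannot be told apart.

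In undifferentiated WT cells a few receptors, Sfrp1, and the TCF/LEF factors Tcf7l1 and Tcf7 had the highest levels of the 48, and the ligands were low. Levels per kilobase were taken over all annotated exons of a gene joined, which can exceed the length of a single transcript. By this measure Fzd5 had the highest level of the 48 (22.8 ± 3.3 CPM per kb, SD, n = 4 libraries). It was followed by Fzd7 (13.3 ± 1.3), and Sfrp1, a secreted protein that binds ligands (12.8 ± 2.1). Fzd7 and Sfrp1 did not differ beyond their spread. The factors Tcf7l1 (8.49 ± 1.3) and Tcf7 (8.11 ± 1.0) overlapped, and so did the co-receptors Lrp6 (6.21 ± 0.70) and Lrp5 (5.40 ± 0.85). Tcf7l2 (1.19 ± 0.14) and Lef1 (0.173 ± 0.052), the other members of that family, were lower. Of the 19 ligands, the highest level per kilobase was that of Wnt6 (0.780 ± 0.19), below that of every Frizzled gene except Fzd1, Fzd4, and Fzd8, and Wnt1 and Wnt2 had 0 reads in the 4 libraries. Among the feedback genes, Notum (3.51 ± 0.45), Znrf3 (2.41 ± 0.16), and Axin2 (1.95 ± 0.42) were above 1 CPM per kb.

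Undifferentiated Mtf2 null cells had more of the ligand Wnt7b, of 2 TCF/LEF factors, and of the receptor Fzd6 than WT. They had less of 3 secreted inhibitors, 2 other receptors, and the feedback gene Axin2. Calls are from edgeR's quasi-likelihood test and need an adjusted p (Benjamini-Hochberg) below 0.001 together with a log2 fold change over 1 in size. By this rule 4 of 29 members were higher, where 8.11% of all tested genes were, and 6 were lower, where 6.57% were. The median log2 fold change was 0.18 over the members and -0.04 over all genes.

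The ligand Wnt7b, known for its part in lung and placenta development, read 0.959, 1.13, 0.359, and 0.566 CPM in WT and 15.2, 14.1, 13.9, and 14.4 CPM in Mtf2 null cells (log2 fold change 4.23 ± 0.24 SE, adjusted p = 1.25e-09). It was the member with the largest change, and no null library came near the WT range. In bulk EBs, where the label Mtf2 null had its own WT line, Wnt7b was not called (0.02 over all days, 0.69 without day 0, given below). That mean covers differentiating days, and the day 0 libraries departed from the later ones. It is therefore no check of the difference in undifferentiated cells. The repressor Tcf7l1 read 39.1, 30.1, 36.1, and 27.8 CPM in WT and 77.1, 74.5, 83.5, and 81.8 in Mtf2 null cells (1.25 ± 0.11, adjusted p = 1.24e-07). Tcf7l2, a factor of the same family, read 8.64 to 11.3 and 20.3 to 24.0 CPM (1.05 ± 0.11, adjusted p = 1.52e-06). The receptor Fzd6 read 3.26 to 5.66 CPM in WT and 8.07 to 9.78 in Mtf2 null cells (1.01 ± 0.18, adjusted p = 2.32e-04). The 2 factors called were therefore both higher, and Tcf7 and Lef1 were not called (-0.15 and 0.73 on the log2 scale).

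All 3 called inhibitors of 4 tested were lower in Mtf2 null cells. The fourth, Sfrp1, read 46.5 to 64.4 CPM in WT and 84.9 to 103 in Mtf2 null cells, and its difference was short of the fold threshold (0.75 ± 0.12, adjusted p = 8.75e-05). Dkk1, too low to be tested, read 0.0873 to 0.283 and 0.848 to 1.40 CPM. Sfrp5 read 2.01, 2.01, 1.98, and 2.26 CPM in WT and 0.188, 0.103, 0.247, and 0.419 in Mtf2 null cells (log2 fold change -3.02 ± 0.36 SE, adjusted p = 4.98e-06). Sfrp2, like Sfrp5 a secreted ligand-binding protein, read 4.10 to 6.33 and 1.55 to 2.26 CPM (-1.45 ± 0.19, adjusted p = 1.33e-05). Dkk3, a divergent member of the Dickkopf family, read 2.36 to 4.12 and 1.23 to 1.59 CPM (-1.26 ± 0.26, adjusted p = 7.19e-04). The groups did not overlap for the 3 called inhibitors, which follows largely from the call on the same libraries. Among receptors, Fzd10 read 17.9, 14.1, 15.5, and 13.0 CPM in WT and 4.62, 4.14, 3.95, and 2.93 in Mtf2 null cells (-1.96 ± 0.13, adjusted p = 1.26e-08), and Fzd4 read 2.70 to 3.74 and 0.822 to 1.76 (-1.16 ± 0.24, adjusted p = 8.54e-04). The feedback gene Axin2, the most widely used readout of the pathway, read 12.2, 9.60, 13.1, and 8.11 CPM in WT and 3.58, 4.35, 3.78, and 3.02 in Mtf2 null cells (-1.55 ± 0.17, adjusted p = 1.55e-06).

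In the libraries labelled Jarid2 null, 1 member was called, where 1.15% of all genes were. Notum, an enzyme that removes the lipid from ligands, read 9.50, 6.98, 8.99, and 8.30 CPM in WT and 3.06, 3.71, 3.54, and 3.17 in these libraries (log2 fold change -1.32 ± 0.15 SE, adjusted p = 3.44e-05). In Mtf2 null cells Notum read 6.10 to 7.71 CPM. Fzd10 read 8.07 to 10.3 CPM in the libraries labelled Jarid2 null, between the other 2 genotypes, without passing the fold threshold (-0.72). Of 37 other pathway genes, 29 were tested, and 3 were called in Mtf2 null cells: the inhibitor Sfrp4 (-2.07), the Dishevelled-binding Dact1 (1.91), and the polarity gene Prickle1 (1.91). In the libraries labelled Jarid2 null, 1 was called, Wls, which carries ligands to the cell surface (1.03).

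With the same-numbered libraries of both series summed, to 2 per genotype, 7 of the 10 calls in Mtf2 null cells remained (Wnt7b, Tcf7l1, Tcf7l2, Sfrp5, Sfrp2, Fzd10, and Axin2), and Notum was no longer called in the libraries labelled Jarid2 null. That sum was chosen after the data were seen. Leaving out 1 library at a time gave 6 to 9 calls, with 6 without Mtf2 null mesoderm library 1, and Axin2, Sfrp5, Wnt7b, Sfrp2, Tcf7l1, and Fzd10 stayed called in each of the 8 fits.

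**Figure D1:**
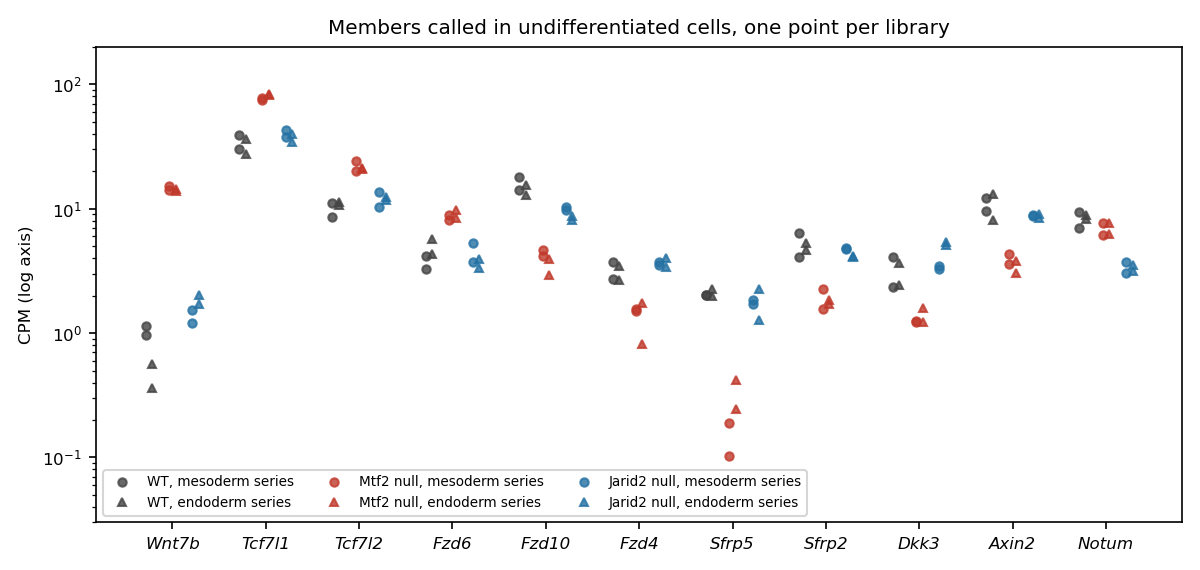
CPM on a log axis of the 11 members called in undifferentiated cells, by genotype (colours) and series (circles mesoderm, triangles endoderm), 1 point per library. Wnt7b at 13.9 to 15.2 CPM in Mtf2 null cells stands above every WT library (0.359 to 1.13), and Notum is lowest in the libraries labelled Jarid2 null (3.06 to 3.71).

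In WT cells Axin2 rose within 5 h of directed culture in both directions and fell from 24 to 48 h. CHIR99021 was added and withdrawn together with other factors of the medium, so its own part cannot be told apart from theirs. Of the 6 tested targets or feedback genes, 3 rose by 5 h and 4 fell from 24 to 48 h toward mesoderm, whereas 1 rose and 2 fell toward endoderm. In the mesoderm series Axin2 read 12.5 and 9.37 CPM undifferentiated, 82.2 and 88.6 at 5 h, 139 and 146 at 24 h, and 17.9 and 17.0 at 48 h (log2 fold change to 24 h 3.71 ± 0.12 SE, adjusted p = 7.32e-14, edgeR). In the endoderm series, whose medium held less CHIR99021 and no BMP4, Axin2 read 13.8 and 8.06, 49.6 and 50.4, 88.4 and 78.6, and 8.58 and 5.27 CPM at the same times (2.93 ± 0.19, adjusted p = 4.16e-10). The 24 h libraries of the endoderm series were below those of the mesoderm series, which was not tested because the tables were scaled separately.

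From undifferentiated cells to 24 h in the mesoderm series, 10 of 37 members rose, where 4.65% of all genes did, and 1 fell, where 2.31% did. The median log2 change was 0.56 over the members and 0.01 over all genes. The risers included 5 of the 6 tested targets or feedback genes: Axin2, Sp5, Nkd1, Rnf43, and Notum. Sp5, a target that itself represses other targets, read 0.887 and 0.511 CPM undifferentiated, 5.33 and 5.01 at 5 h, 20.9 and 21.8 at 24 h, and 0 in both libraries at 48 h (4.93 ± 0.29 to 24 h, adjusted p = 9.61e-10). Wnt3, the ligand needed for the primitive streak, went from 1 read in both undifferentiated libraries together to 90 at 24 h (ratio 79.5, 95% counting interval 13.9 to 3175, adjusted p = 5.50e-06). Its levels were 0 and 0.0852 CPM undifferentiated and 3.71 and 3.57 at 24 h. Wnt5b read 0.197 and 0.426 CPM and then 4.34 and 4.30 (3.72 ± 0.39, adjusted p = 4.53e-07), so 2 of 10 tested ligands rose. Lef1, the factor that is itself a target, read 1.58 and 1.19 CPM and then 11.2 and 12.3 (3.09 ± 0.33, adjusted p = 6.31e-07), and Tcf7 (1.45) and Fzd10 (1.34) also rose. The member that fell was Sfrp5, from 2.07 and 1.96 to 0.181 and 0.146 CPM (-3.55 ± 0.70, adjusted p = 5.28e-04).

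By 5 h 6 of the 37 were already called (4.13% of all genes were), all of them higher: Axin2 (2.97), Sp5 (2.89), Tcf7l1 (1.2), Fzd10 (1.13), Znrf3 (1.12), and Wnt3 (46 reads against 1, ratio 48.8, counting interval 8.33 to 1967). Tcf7l1 did not keep this rise, with 40.2 and 29.4 CPM undifferentiated, 74.2 and 85.3 at 5 h, 23.7 and 26.8 at 24 h, and 62.6 and 68.6 at 48 h. From 24 to 48 h 8 members fell, where 1.74% of all genes did, and 4 rose, where 2.41% did. Sp5 fell from 530 reads to 0, at least 197-fold lower when 3 reads are set for the 0 of the group (adjusted p = 5.00e-11), and Wnt8a fell from 18 reads to 0, at least 6.67-fold (adjusted p = 7.30e-04). Axin2 (-3.03), Wnt5b (-2.96, to 0.523 and 0.571 CPM), Fzd10 (-2.57, from 39.7 and 41.6 to 7.45 and 6.11 CPM), Notum (-2.05), Nkd1 (-1.70), and Sfrp1 (-1.13) were the other members that fell. The members that rose were the receptors Fzd1 (2.12, from 0.814 and 1.09 to 3.60 and 4.89 CPM) and Fzd2 (1.57, from 3.34 and 2.70 to 9.87 and 7.99), the ligand Wnt7b (2.08, from 1.27 and 1.09 to 3.99 and 6.11), and Tcf7l1 (1.38). The comparisons to and from 24 h share the 24 h libraries. Without WT undifferentiated library 2 the calls went from 6 to 3 at 5 h, without that library or WT 24 h library 2 from 11 to 7 at 24 h, and without WT 24 h library 1 or 2 or WT 48 h library 2 from 12 to 7 at 48 h. Axin2 and Sp5 stayed called in each of these fits of the 3 comparisons.

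Toward endoderm 5 of 38 members rose to 24 h, where 3.22% of all genes did, and 2 fell, where 2.09% did. Sp5 read 0.379 and 0.562 CPM undifferentiated, 7.56 and 8.82 at 24 h, and 0 in both libraries at 48 h (4.09 ± 0.48 to 24 h, adjusted p = 2.64e-06). Wnt3 read 0.284 and 0.0937 and then 1.67 and 1.60 CPM (3.05 ± 0.59, adjusted p = 3.98e-04), and Wnt8a went from 1 read to 36 (ratio 26, counting interval 4.38 to 1054, adjusted p = 1.13e-04). Tcf7 rose from 25.1 and 18.7 to 45.3 and 42.8 CPM (1.01 ± 0.15, adjusted p = 3.84e-05). Sfrp5 fell here too, from 2.08 and 2.25 to 0.145 and 0.256 CPM (-3.35 ± 0.60, adjusted p = 1.87e-04), and so did Fzd9, from 3.41 and 3.56 to 1.31 and 1.09 CPM (-1.54 ± 0.32, adjusted p = 8.04e-04).

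At 5 h of the endoderm series 3 members were called, Axin2 (2.19), Tcf7l1 (1.30), and Fzd10 (1.12), where 2.10% of all genes were. From 24 to 48 h 7 fell, where 1.68% did, and 2 rose, where 2.20% did. Sp5 fell from 242 reads to 0, at least 60.8-fold (adjusted p = 1.95e-07), and Wnt3a and Wnt8a each fell from 36 reads to 1 (ratio 27.1, counting interval 4.57 to 1101 for both). Fzd10 fell from 26.96 and 30.2 to 5.02 and 2.45 CPM (-2.92 ± 0.20, adjusted p = 1.63e-09), Axin2 by 3.58, Wnt5b by 2.76, and Sfrp1 by 1.51 on the log2 scale. Fzd2 rose from 4.43 and 3.45 to 17.3 and 12.2 CPM (1.91 ± 0.23, adjusted p = 2.98e-06) and Tcf7l1 from 34.4 and 30.9 to 88.8 and 70.3 (1.29 ± 0.16, adjusted p = 4.05e-06). The 7 calls at 24 h went to 4 without WT 24 h library 1, to 3 without WT 24 h library 2, and to 2, Axin2 and Sp5, without WT undifferentiated library 2.

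**Figure D2:**
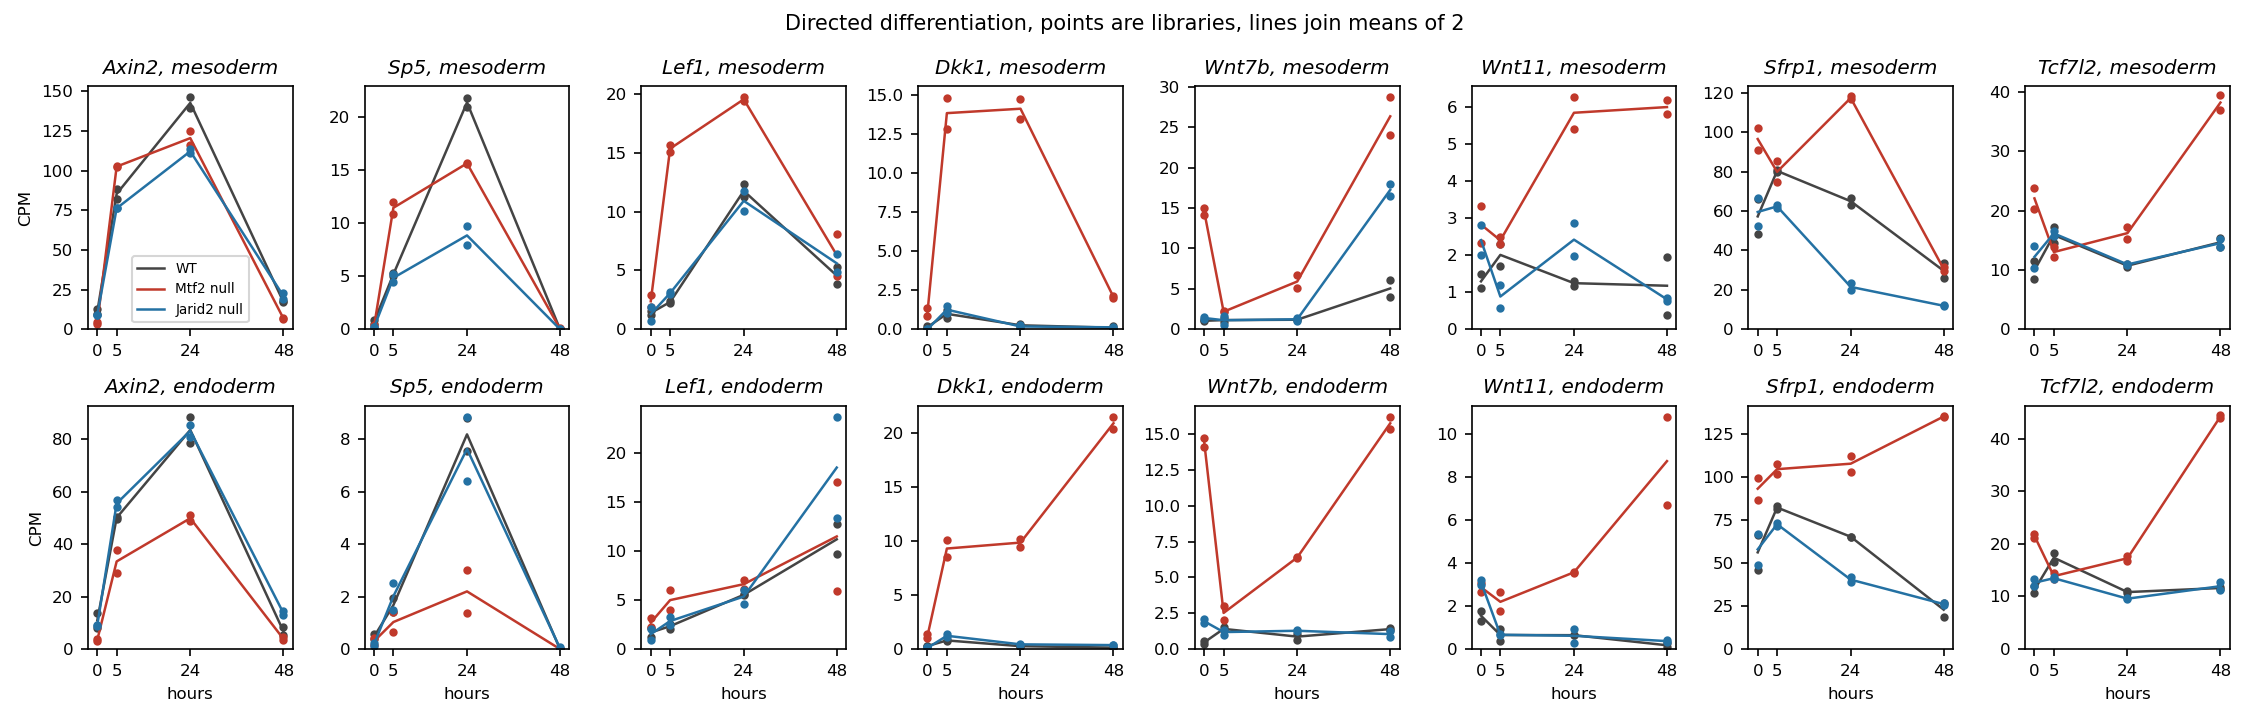
CPM of 8 members against hours of directed culture (0 is undifferentiated), mesoderm series above and endoderm series below, with 1 point per library and lines through the means of 2. Axin2 and Sp5 peak at 24 h in every genotype, and Dkk1 leaves the floor in Mtf2 null cells (12.9 to 14.9 CPM at 5 h of the mesoderm series) where the other genotypes are at most at 1.497.

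At 5 h of the mesoderm series 6 of 37 members were called in Mtf2 null cells against WT, where 7.56% of all genes were, and all 6 were higher. Dkk1, the secreted blocker of LRP5 and LRP6 and itself a Wnt target, read 0.723 and 1.25 CPM in WT and 14.9 and 12.9 in Mtf2 null cells (log2 fold change 3.81 ± 0.37 SE, adjusted p = 2.28e-07, edgeR). Lef1 read 2.44 and 2.19 CPM in WT and 15.7 and 15.1 in Mtf2 null cells (2.72 ± 0.30, adjusted p = 9.34e-07), which WT cells did not reach at any time. The ligand Wnt8a, known from the primitive streak, read 0.361 and 0.209 and then 4.54 and 4.26 CPM (3.88 ± 0.56, adjusted p = 2.87e-05). Sp5 read 5.33 and 5.01 CPM in WT and 10.9 and 12.0 in Mtf2 null cells (1.14 ± 0.22, adjusted p = 6.51e-04), and the receptors Fzd6 (1.65) and Fzd7 (1.08) were higher as well. Axin2, by contrast, was at 82.2 and 88.6 CPM in WT and 103 and 102 in Mtf2 null cells, a difference of 0.26 (adjusted p = 0.0644). Without WT 5 h library 2 the 6 calls became 3, Dkk1, Lef1, and Fzd7, and these were called in each of the 4 fits that left out a library.

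At the same time toward endoderm, 5 of 38 members were called, where 7.61% of all genes were, again all higher in Mtf2 null cells. Dkk1 read 0.849 and 0.754 CPM in WT and 8.50 and 10.1 in Mtf2 null cells (3.52 ± 0.25, adjusted p = 6.09e-10), and Wnt8a 0.309 and 0.335 and then 5.00 and 4.15 CPM (3.79 ± 0.46, adjusted p = 1.95e-06). Fzd6 (1.46), Fzd7 (1.03), and Fzd1 (2.17) were the other 3. Lef1 read 2.08 and 2.60 CPM in WT and 6.04 and 3.96 in Mtf2 null cells (1.10, adjusted p = 0.0775), and Sp5 read 1.93 and 1.42 and then 1.42 and 0.645 CPM (-0.71, adjusted p = 0.298). The 4 calls other than Fzd1 held without any 1 library.

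At 24 h Dkk1 had the largest log2 fold change of the called members in both series. Toward mesoderm it read 0.362 and 0.146 CPM in WT and 13.5 and 14.8 in Mtf2 null cells (5.80 ± 0.45, adjusted p = 9.97e-09), and in the endoderm series 0.218 and 0.319 and then 10.2 and 9.50 CPM (5.13 ± 0.29, adjusted p = 1.07e-11). Wnt7b read 1.27 and 1.09 CPM in WT and 5.13 and 6.69 in Mtf2 null cells of the mesoderm series (2.33 ± 0.32, adjusted p = 1.5e-05), and 0.654 and 1.09 and then 6.46 and 6.33 CPM in the endoderm series (2.85 ± 0.26, adjusted p = 3.26e-08). Wnt11, a ligand mostly known for signalling without beta-catenin, read 1.18 and 1.31 and then 5.42 and 6.27 CPM in the mesoderm series (2.22 ± 0.42, adjusted p = 5.88e-04). Toward endoderm it read 0.654 and 0.639 and then 3.60 and 3.54 (2.45 ± 0.41, adjusted p = 1.0e-04). Dkk1, Wnt7b, and Wnt11 were thus each called higher in both directions.

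Fzd5, the receptor with the highest level in undifferentiated cells, was lower in Mtf2 null cells at 24 h of the mesoderm series (135 and 135 CPM in WT, 56.8 and 53.3 in null cells, -1.30 ± 0.11, adjusted p = 4.57e-08). Sp5 was lower in the endoderm series, at 7.56 and 8.82 CPM in WT and 1.38 and 3.01 in Mtf2 null cells (-1.87 ± 0.37, adjusted p = 7.74e-04), while in the mesoderm series it read 20.9 and 21.8 and then 15.7 and 15.6 (-0.45, adjusted p = 0.117). Fzd1 was higher in the endoderm series (1.84). These make 4 calls of 37 in the mesoderm series, where 5.73% of all genes were called, and 5 of 38 in the endoderm series, where 6.58% were. Dkk1 and Fzd5 in the mesoderm series and Dkk1 and Wnt7b in the endoderm series stayed called in each fit without 1 library. The counts fell to 2 without WT 24 h library 2 (mesoderm), to 3 without WT 24 h library 1 or 2 (endoderm), and to 2 without Mtf2 null 24 h library 2 (endoderm). The marker lists moved too: the 3 primitive streak markers (T, Mixl1, Eomes) summed to 12.7 to 14.3 CPM in Mtf2 null cells of the endoderm series and to 34.3 to 37.6 in WT, and their part in the result for Sp5 was not tested.

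At 48 h 5 of 37 members were higher in Mtf2 null cells of the mesoderm series, where 3.76% of all genes were, and 3 were lower, where 3.06% were. Toward endoderm 8 of 38 were higher, where 6.37% of all genes were, and 1 was lower, where 4.17% were. The median log2 fold change of the members was 0.27 and 0.58, and of all genes 0.01 and -0.02. Of the tested ligands 3 of 10 and 3 of 11 were higher and none lower, and of the 5 tested inhibitors 2 were called in each series.

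Wnt7b at 48 h read 3.99 and 6.11 CPM in WT and 28.7 and 24.0 in Mtf2 null cells of the mesoderm series (2.39 ± 0.24, adjusted p = 2.45e-07), and 1.47 and 1.32 and then 15.3 and 16.2 CPM in the endoderm series (3.49 ± 0.24, adjusted p = 2.22e-10). Wnt11 read 0.392 and 1.96 and then 5.81 and 6.18 CPM in the mesoderm series (2.40 ± 0.42, adjusted p = 2.24e-04). Its endoderm levels were 0.260 and 0.0942 and then 10.8 and 6.70 CPM (5.52 ± 0.50, adjusted p = 1.49e-08). Wnt4, a ligand known from kidney and gonad development, was the third, with 2.55 and 2.53 and then 8.81 and 9.75 CPM in the mesoderm series (1.87 ± 0.34, adjusted p = 2.85e-04) and 3.12 and 3.39 and then 10.3 and 9.01 CPM in the endoderm series (1.57 ± 0.28, adjusted p = 1.35e-04).

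For the inhibitors at 48 h the directions are given side by side, and the difference between them was not tested. Dkk1 had 3 reads in WT and 49 in Mtf2 null cells of the mesoderm series (0.196 and 0 CPM, then 2.00 and 2.14, ratio 19.1, counting interval 6.15 to 95.6, adjusted p = 2.54e-05). Toward endoderm it had 3 reads in WT and 579 in Mtf2 null cells (0.173 and 0.0942 CPM, then 21.5 and 20.4, ratio 154, counting interval 52.6 to 751, adjusted p = 1.56e-13). In Mtf2 null cells it was thus below its 24 h level in the mesoderm direction and above it in the endoderm direction. Sfrp1 read 26.9 and 18.9 CPM in WT and 136 and 135 in Mtf2 null cells of the endoderm series (2.56 ± 0.17, adjusted p = 7.41e-11), whereas in the mesoderm series the 4 libraries lay between 25.8 and 33.5 CPM. Dkk3 was called lower in the mesoderm series (4.05 and 2.53 CPM in WT, 0.545 and 0.475 in null cells, -2.68 ± 0.43, adjusted p = 7.11e-05) and read 2.95 and 1.41 and then 0.973 and 1.19 CPM in the endoderm series.

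Of receptors and factors, Fzd3 was lower in Mtf2 null cells of both series, at 37.6 and 43.7 against 15.4 and 15.1 CPM in the mesoderm (-1.41 ± 0.15, adjusted p = 7.01e-07) and 44.2 and 53.7 against 14.0 and 10.8 CPM in the endoderm direction (-1.98 ± 0.15, adjusted p = 7.21e-10). Tcf7l2 was higher in both, at 13.9 and 15.4 against 36.98 and 39.5 CPM (1.38 ± 0.15, adjusted p = 6.23e-07) and at 11.3 and 11.9 against 43.9 and 44.5 CPM (1.93 ± 0.11, adjusted p = 1.32e-11). Fzd1 (1.40) and Fzd8 (1.36) were higher in the endoderm series. Of the 6 tested feedback genes 1 was called, Axin2 in the mesoderm series, at 17.9 and 17.0 CPM in WT and 7.36 and 6.66 in Mtf2 null cells (-1.32 ± 0.14, adjusted p = 3.22e-07). Its level in the endoderm series was 8.58 and 5.27 CPM in WT and 4.64 and 3.28 in null cells (-0.82, adjusted p = 0.0156).

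Axin2, Fzd3, Wnt7b, Dkk1, and Tcf7l2 in the mesoderm and Fzd3, Wnt11, Wnt7b, Dkk1, Tcf7l2, and Sfrp1 in the endoderm series stayed called in each fit without 1 library. The mesoderm count fell from 8 to 5 without Mtf2 null 48 h library 1, Mtf2 null 48 h library 2, or WT 48 h library 1. Besides the extraembryonic list given above, the 4 mesoderm markers (Hand1, Gata4, Pdgfra, Kdr) summed to 127 to 159 CPM in Mtf2 null cells of both series and to 6.69 to 17.9 in WT at 48 h, and the 3 endoderm markers (Sox17, Foxa2, Cxcr4) to 25.9 to 56.6 and 0.780 to 2.28. The part of these cell types in the calls of the members was not tested. Of the 30 tested other pathway genes, 5 were called in the mesoderm and 8 in the endoderm series at 48 h. They included Porcn, which adds the lipid to ligands (3.00 in the endoderm series), the receptor Ror2 (1.5 and 1.71), and Dact1 (1.95 and 1.35) among those higher, and Sfrp4 (-2.13 and -1.38), Wls (-1.13 in the mesoderm series), and Lgr4 (-1.14 in the endoderm series) among those lower.

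**Figure D3:**
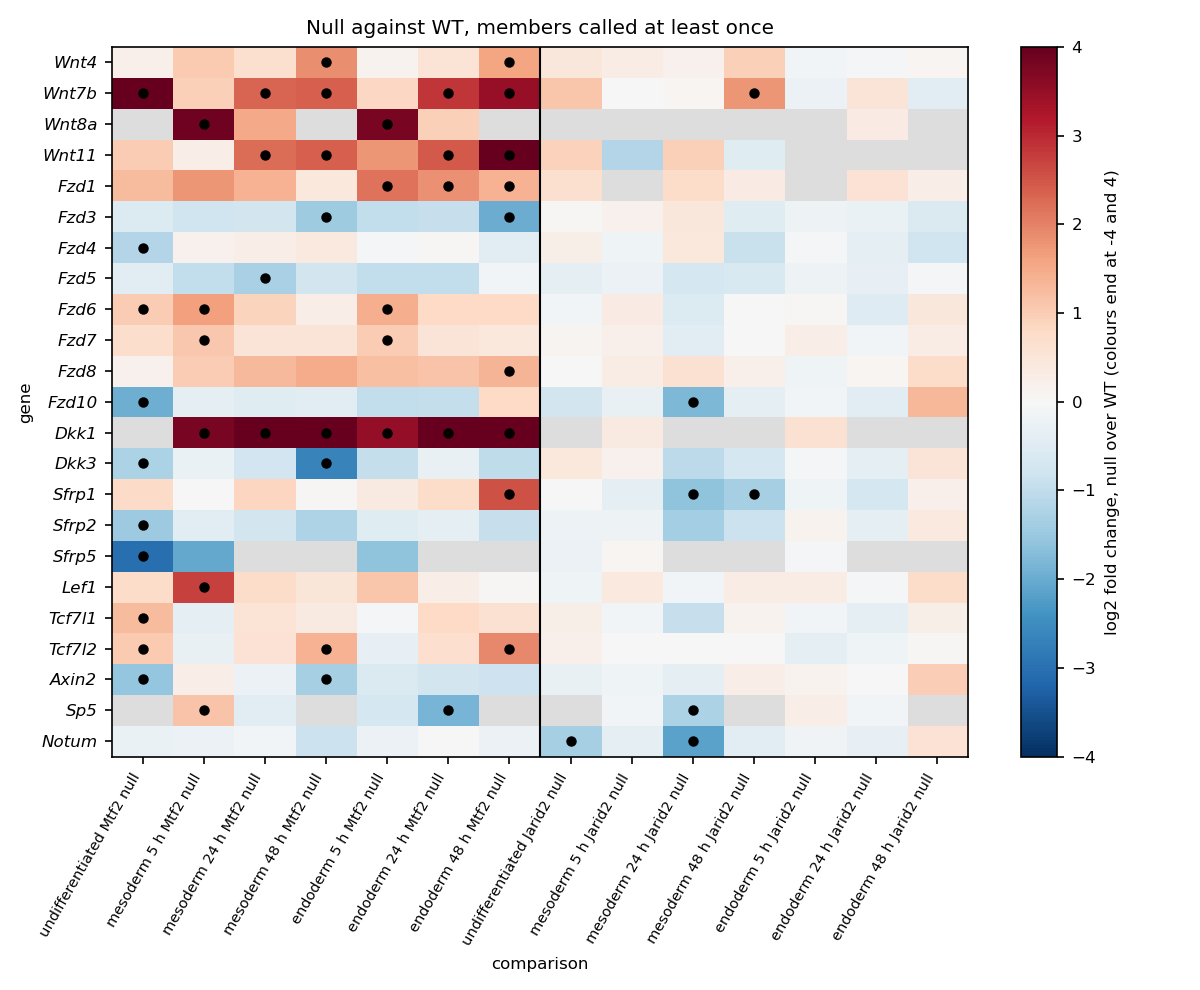
Log2 fold change of null over WT (colour, ending at -4 and 4) for the 23 members called in at least 1 directed comparison, Mtf2 null left of the line and libraries labelled Jarid2 null right of it, with black dots for calls. Grey cells were not tested or had under 1 CPM in the higher group, and Dkk1, Wnt7b, and Wnt11 carry the darkest cells on the Mtf2 null side.

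The libraries labelled Jarid2 null differed from WT in fewer members, and those called at 24 h of the mesoderm series were all lower. There 4 of 37 were called, where 1.98% of all genes were. Fzd10 read 39.7 and 41.6 CPM in WT and 10.9 and 12.7 in these libraries (-1.79 ± 0.14 SE, adjusted p = 5.01e-07), Sfrp1 66.7 and 63.3 and then 19.7 and 23.3 CPM (-1.60 ± 0.15, adjusted p = 2.85e-06). Notum read 19.9 and 20.4 and then 3.02 and 6.27 CPM (-2.14 ± 0.25, adjusted p = 2.05e-05), and Sp5 20.9 and 21.8 and then 7.94 and 9.73 (-1.28 ± 0.20, adjusted p = 3.48e-04). Axin2 was at 139 and 146 CPM in WT and 111 and 114 in these libraries, a difference of -0.35 that was not called. Wnt3 read 3.71 and 3.57 CPM in WT and 0.529 and 0.935 in these libraries (-2.32, adjusted p = 0.0021), short of the threshold. The 3 primitive streak markers summed to 68.9 to 72.5 CPM in WT and 30.2 to 47.0 in these libraries, and their part in the calls was not tested. Without Jarid2 null 24 h library 1 the 4 calls became 2, Sfrp1 and Fzd10, which held in each of the 4 fits.

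At 48 h of the mesoderm series 2 members were called (0.169% of all genes were). Wnt7b was at 3.99 and 6.11 CPM in WT and 18.0 and 16.5 in the libraries labelled Jarid2 null (1.78 ± 0.24, adjusted p = 3.14e-04), a rise in the same direction as in Mtf2 null cells, whose comparison shares the WT libraries. Sfrp1 was at 33.5 and 25.8 and then 12.1 and 11.7 CPM (-1.32 ± 0.16, adjusted p = 1.30e-04). Neither was called without Jarid2 null 48 h library 1, Jarid2 null 48 h library 2, or WT 48 h library 1. By edgeR 0 of 37 members were called at 5 h of the mesoderm series, where 0% of all genes were, with 7 (18.9%) at an unadjusted p under 0.05, compared to 14.6% of all genes, and 0 called by DESeq2. Toward endoderm 0 of 38 were called at 5, 24, and 48 h, where 0.0363%, 0.0312%, and 0.125% of all genes were, with 2, 5, and 13 members (5.26%, 13.2%, and 34.2%) at an unadjusted p under 0.05, compared to 7.61%, 9.03%, and 21.8% of all genes. The 48 h libraries of this label were matched to columns whose names write another hour, so the 48 h comparison rests on that match. DESeq2 called 0, 0, and 1 there, the last being Fzd10 at 48 h, which read 5.02 and 2.45 CPM in WT and 9.65 and 9.54 in these libraries. Axin2 at that time read 8.58 and 5.27 CPM in WT and 13.0 and 14.7 in these libraries (0.99, adjusted p = 0.00873), not called.

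Whether the change from undifferentiated cells to 24 h itself differed from WT was tested with interaction terms. In the mesoderm series 2 of 37 members passed for Mtf2 null cells (2.27% of all genes did): Axin2 (1.22 ± 0.20, adjusted p = 2.85e-04) and Fzd10 (1.41 ± 0.22, adjusted p = 2.26e-04). Both began lower in Mtf2 null cells, at 3.55 and 4.35 CPM for Axin2 and 4.57 and 4.15 for Fzd10, and came to 125 and 116 and to 28.98 and 29.9 CPM at 24 h, so their rise was larger than in WT on the log2 scale. For the libraries labelled Jarid2 null Sfrp1 passed (-1.66 ± 0.21, adjusted p = 4.69e-04, where 0.136% of all genes did), with 66.8 and 52.3 CPM undifferentiated and 19.7 and 23.3 at 24 h. Each rested on few libraries: Axin2 and Fzd10 were each called in 2 of 8 fits without 1 library, and Sfrp1 in 3 of 8. Without Mtf2 null 24 h library 1 or 2, Mtf2 null undifferentiated library 1, or WT 24 h library 1 or 2, the count for Mtf2 null cells was 0, and without Mtf2 null undifferentiated library 2 it was 1. For the libraries labelled Jarid2 null it was 0 without Jarid2 null 24 h library 1, Jarid2 null undifferentiated library 1, WT 24 h library 1 or 2, or WT undifferentiated library 2, and 2 without WT undifferentiated library 1. Toward endoderm 0 of 38 passed for either (2.37% and 0.0675% of all genes did), with 13 and 7 (34.2% and 18.4%) at an unadjusted p under 0.05 by edgeR, compared to 28.4% and 9.76% of all genes, and 0 called by DESeq2.

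Bulk EBs ask how the members move without added Wnt activation. Each line had 1 sample per day (4071242 to 30457254 reads), and each null label was compared with its own WT line over 4 days with limma at an adjusted p under 0.05, so a call is a mean difference between lines over the days. None of the targeted genes was called lower under its own label. Mtf2 read 317, 237, 231, and 164 CPM at days 0, 2, 4, and 7 in the libraries labelled Mtf2 null and 415, 442, 324, and 384 in Pcl1-3 WT (-0.75, adjusted p = 0.0857), and the differences of Jarid2 (-0.11) and Eed (0.10) were smaller. At day 0 these Mtf2 null libraries and those of Jarid2 null also departed from their later days: of 238 genes that differed between these labels by at least 2 on the log2 scale in the same direction at days 2, 4, and 7, 237 went the opposite way at day 0, compared to 2 of 101 between Pcl1-3 WT and JM8. Day 0 is also monolayer by its column names. Results are therefore given with and without day 0.

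Tcf7, a factor that activates targets and also has short repressive forms, was the member called lower under all 3 labels, where 18.4% (Mtf2), 14.8% (Jarid2), and 10.9% (Eed) of all genes were called. At days 0, 2, 4, and 7 it read 51.9, 31.2, 67.9, and 54.1 CPM in the libraries labelled Mtf2 null and 102, 90.1, 208, and 110 in Pcl1-3 WT (log2 fold change -1.28 ± 0.18 SE, adjusted p = 6.53e-05). It read 53.3, 39.5, 103, and 44.7 CPM in those labelled Jarid2 null and 103, 74.3, 151, and 102 in JM8 (-0.90 ± 0.18, adjusted p = 0.00201). In those labelled Eed null it read 54.5, 51.2, 86.4, and 50.1 CPM and in J1 131, 80.9, 158, and 57.9 (-0.75 ± 0.18, adjusted p = 0.0111). Every null sample was below its WT sample of the same day. Without day 0 the call held for the labels Mtf2 null (-1.41, adjusted p = 4.25e-04) and Jarid2 null (-0.85, adjusted p = 0.0102) and was lost for Eed null.

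Of the 44 tested members 6 were called under each label, where 18.4% (Mtf2), 14.8% (Jarid2), and 10.9% (Eed) of all genes were. The counts of members thus lie below or near the shares of all genes. The median log2 fold change was 0.42, 0.18, and 0.38 (all genes 0.03, 0.01, and -0.00). Wnt11 was higher under the labels Mtf2 null and Jarid2 null. It read 1.95, 1.71, 4.18, and 11.8 CPM in the libraries labelled Mtf2 null and 1.16, 0.634, 0.984, and 0.105 in Pcl1-3 WT (2.27 ± 0.64, adjusted p = 0.0187). In those labelled Jarid2 null it read 4.22, 0.692, 9.15, and 19.0 CPM and in JM8 0.304, 0.0790, 1.18, and 1.97 (2.69 ± 0.64, adjusted p = 0.00818). In those labelled Eed null it also stood above J1 on each day (7.07, 2.18, 4.69, and 16.0 against 2.67, 0.771, 2.26, and 8.72 CPM) without being called. Dkk1 was higher under the label Mtf2 null, with 0.417, 3.07, 9.44, and 30.4 CPM against 0.0684, 0, 0, and 8.01 (3.21 ± 0.85, adjusted p = 0.0128). The single-cell library of Mtf2 null cells at day 4 held no Dkk1 molecule (limit of 1.10 CPM, given below). Under the label Mtf2 null in bulk EBs, no member called in undifferentiated Mtf2 null cells was called, with or without day 0. Wnt7b differed by 0.02 ± 0.90 (adjusted p = 0.991, limma), and by 0.69 without day 0. Over all days Sfrp5, Fzd10 (1.06), Dkk3, and Fzd4, lower in the undifferentiated cells, lay above Pcl1-3 WT. Tcf7l1, Tcf7l2, Fzd6 (0.67), Sfrp2 (-0.23 ± 0.33), and Axin2 (-0.44 ± 0.35) had the sign seen in the undifferentiated cells. Without day 0 Sfrp2 was at 0.05. The 95% intervals of Sfrp2 and Axin2 over all days held 0. Since none of these members was called, their signs show neither a kept nor a lost difference.

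The receptors moved both ways. Fzd3 was higher under the label Mtf2 null (32.4, 28.8, 51.7, and 70.6 CPM against 28.3, 14.3, 24.0, and 15.9, 1.11 ± 0.23, adjusted p = 0.00248) and under Eed null (50.7, 46.3, 69.5, and 90.5 CPM against 19.9, 20.7, 37.7, and 47.9, 1.07 ± 0.23, adjusted p = 0.00651). In the 48 h directed libraries Fzd3 had been lower in Mtf2 null cells. Fzd2 was lower under the label Jarid2 null (8.43, 3.63, 34.3, and 52.3 CPM against 11.2, 17.1, 106, and 119, -1.34 ± 0.29, adjusted p = 0.00386) and under Eed null (9.77, 3.40, 32.9, and 57.1 CPM against 10.3, 8.86, 78.9, and 126, -0.95 ± 0.29, adjusted p = 0.04). Fzd10 was higher in those labelled Jarid2 null (11.7, 29.8, 38.1, and 23.0 CPM against 5.09, 5.61, 16.8, and 15.4, 1.32 ± 0.42, adjusted p = 0.0408), where Fzd7 was lower (69.5, 110, 211, and 140 CPM against 203, 237, 294, and 178, -0.87 ± 0.27, adjusted p = 0.035). The co-receptor Lrp6 was higher in those labelled Eed null (280, 311, 285, and 333 CPM against 147, 164, 189, and 204, 0.79 ± 0.16, adjusted p = 0.00437).

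Znrf3, the ligase that removes Frizzled receptors, was lower under the label Mtf2 null (27.95, 28.2, 33.7, and 43.4 CPM against 54.99, 51.7, 60.4, and 40.98, -0.65 ± 0.15, adjusted p = 0.00482) and under Jarid2 null (33.7, 26.9, 38.6, and 29.7 CPM against 53.9, 51.9, 54.5, and 48.7, -0.71 ± 0.15, adjusted p = 0.00321). Sfrp1 was higher in those labelled Eed null (86.1, 134.5, 88.0, and 113 CPM against 48.1, 41.2, 13.2, and 70.1, 1.49 ± 0.45, adjusted p = 0.0413). The ligands Wnt16, in those labelled Eed null (2.91, 1.13, 1.17, and 1.17 CPM against 0.890, 0.0963, 0.103, and 0, 2.19 ± 0.67, adjusted p = 0.0416), and Wnt6, in those labelled Mtf2 null (4.31, 1.62, 1.25, and 3.54 CPM against 0.547, 0, 0.328, and 1.16, 2.19 ± 0.64, adjusted p = 0.0221), completed the calls. Folds of such low genes are understated, since 2 reads were added before taking logs. Axin2, called in none of the 3 comparisons, peaked at day 4 in J1 (130 CPM) and in the libraries labelled Jarid2 null (109 CPM).

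Without day 0 the counts of 43 tested members were 10, 6, and 6, where 21.6%, 18.5%, and 9.24% of all genes were called. In the libraries labelled Mtf2 null Wnt4 (1.39), Wnt10b (1.67), Wnt16 (1.47), Notum (-1.72), and Fzd2 (-0.96) were added and Wnt6 was lost. In those labelled Jarid2 null Wnt7b was added (-2.21, adjusted p = 0.00124), with 24.4, 0.346, 1.05, and 2.45 CPM against 5.16, 4.42, 2.51, and 14.4 in JM8, so that day 0 stood on the other side of its WT line than the later days. Fzd7 was lost there. In those labelled Eed null Sfrp2 was added (1.24) and Tcf7 lost. Leaving out day 4 gave 3, 2, and 0 calls, and leaving out day 2 gave 1 call for the label Eed null. Tcf7 and Fzd3 (Mtf2 null) and Tcf7 and Znrf3 (Jarid2 null) were called without any 1 day, and no member was for Eed null.

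**Figure D4:**
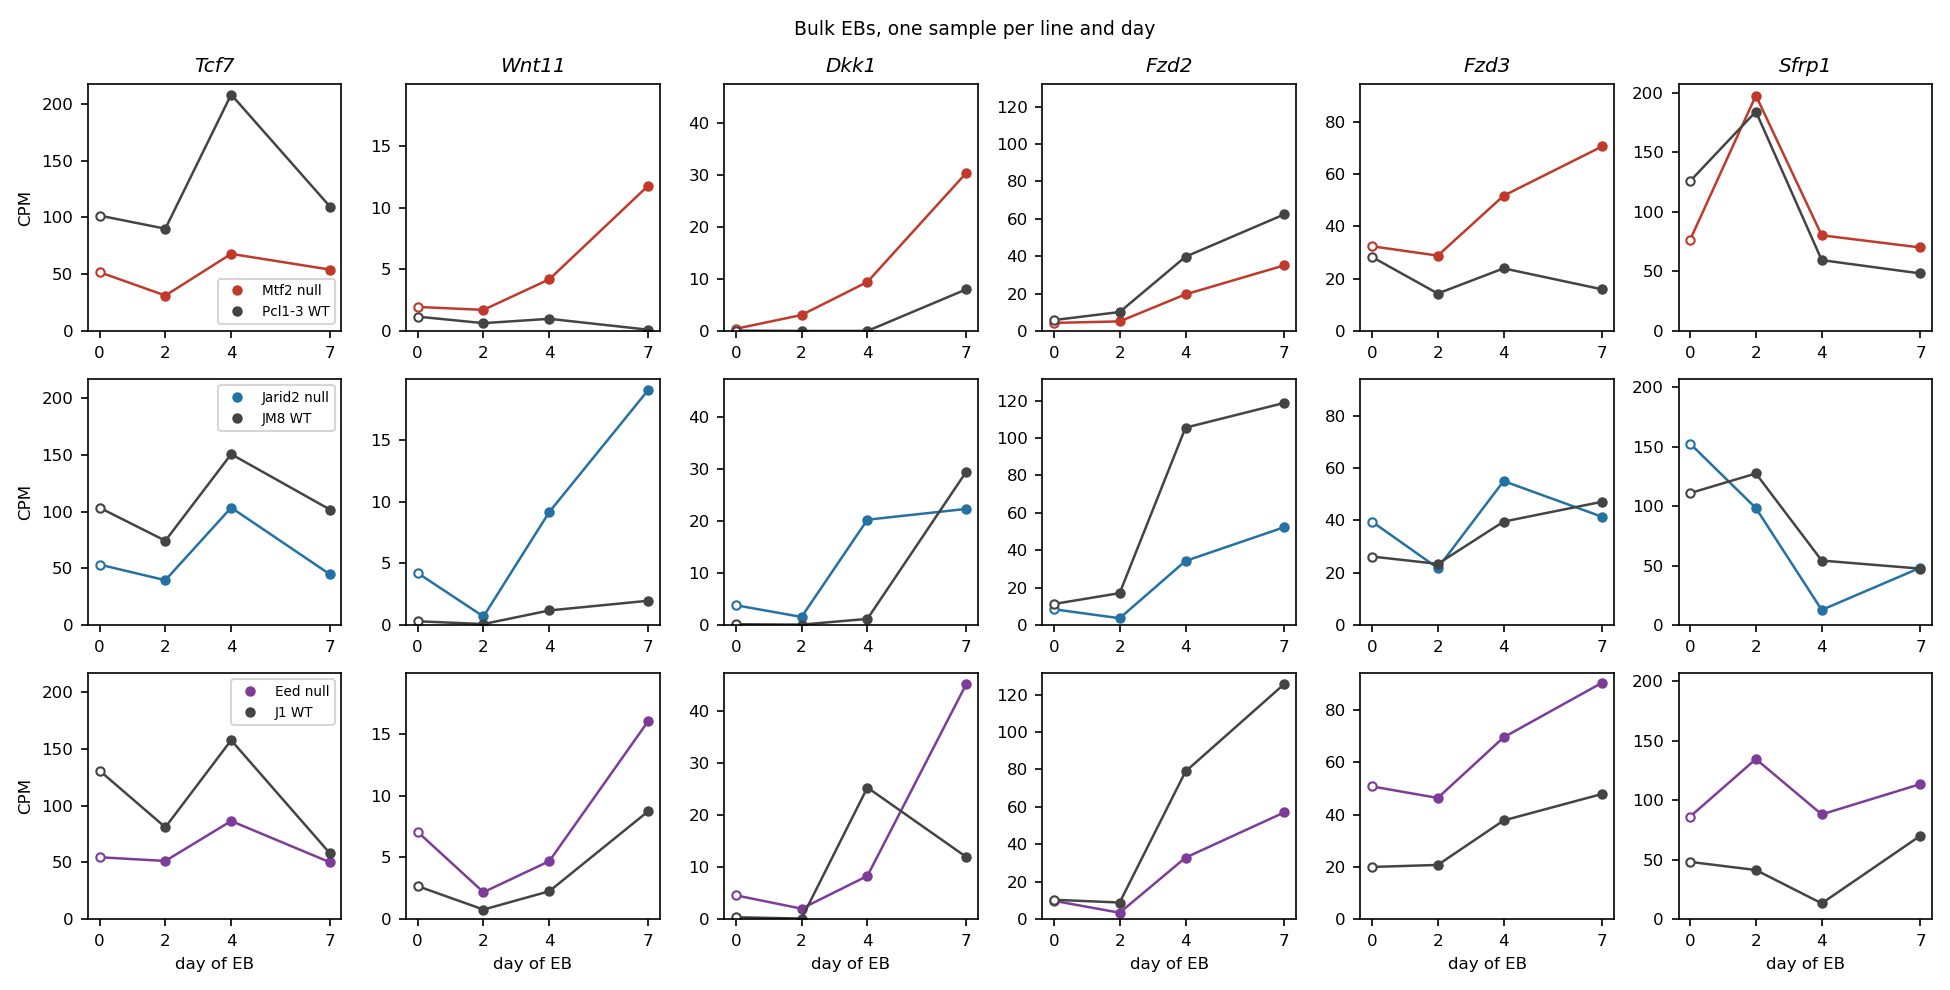
CPM of 6 members in bulk EBs against day, each null label (colour) with its own WT line (grey) in a row, 1 sample per point. Day 0, monolayer by its column names, is drawn open. Tcf7 lies below its WT line on each day in all 3 rows (for example 67.9 against 208 CPM at day 4 in the first), and Wnt11 ends at 11.8 to 19.0 CPM at day 7 in the null libraries.

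Single cells show which cells of the EBs hold the members. The 16 libraries held 4949 kept cells and 15830 listed genes, 44 of the 48 members among them (Wnt2b, Wnt7a, Wnt9b, and Wnt10a were not), and 28 members had at least 100 unique molecular identifiers (UMIs), which count captured molecules. Median UMIs per cell ran from 4997 to 10603 over libraries, and all 384 well barcodes recur in more than 1 library because they name plate wells. There was 1 library per genotype and day, so no test is given, and the 95% Poisson intervals of summed levels cover counting error only. At day 0 Mtf2 read 56.3 CPM in Mtf2 null cells and 793.5 in WT, Jarid2 145.8 in Jarid2 null cells and 594.5 in WT, and Eed 11.5 in Eed null cells and 478.0 in WT.

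Sp5, Axin2, and Wnt3 were highest at day 7 in WT cells. At days 0, 4, 7, and 10 Sp5 read 1.34, 0, 68.3, and 17.2 CPM, Axin2 6.69, 4.67, 43.3, and 22.2, and Wnt3 0.335, 1.87, 58.4, and 19.3. At day 7 Axin2 read 27.8 CPM in Mtf2 null, 15.2 in Jarid2 null, and 25.5 in Eed null cells (WT interval 34.9 to 53.1, Jarid2 null interval 10.2 to 21.9). Sp5 at day 7 read 63.6 in Mtf2 null, 24.1 in Jarid2 null, and 10.6 in Eed null cells (Eed null interval 6.87 to 15.7, WT interval 57.6 to 80.3), and at day 10 no UMI of Sp5 was found in 202 Eed null cells, which allows up to 2.24 CPM (3 UMIs). Wnt3 in Eed null cells stayed at 0, 0.443, 3.82, and 2.99 CPM over the 4 days, whereas Mtf2 null and Jarid2 null cells read 30.8 and 26.8 CPM at day 7. The summed levels of WT and Mtf2 null cells overlapped within their intervals for Sp5, and those for Wnt3 did not.

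Lef1 read 0.669, 19.6, 116, and 65.8 CPM in WT, 9.51, 26.4, 93.1, and 75.9 in Mtf2 null, 31.1, 163, 210.4, and 178 in Jarid2 null, and 25.9, 40.8, 125, and 113 in Eed null cells over the 4 days. It was highest in the Jarid2 null library on each day, although at day 0 the intervals of Jarid2 null (25.3 to 37.9) and Eed null cells (20.8 to 31.9) overlapped. The Jarid2 null library had an interval of 148 to 180 CPM at day 4 against 14.1 to 26.5 in WT. Bulk EBs and undifferentiated directed libraries did not show Lef1 higher under this label. In bulk EBs it differed from JM8 by -1.22 ± 0.66 (adjusted p = 0.232, limma), and by -0.98 without day 0. Undifferentiated directed libraries read 0.643 to 2.04 CPM under the label Jarid2 null and 1.17 to 2.17 in WT. Wnt5a, a ligand of elongating tissues, read 80.5, 74.8, 22.0, and 74.3 CPM at day 7 (order WT, Mtf2, Jarid2, Eed) and 0.669, 3.86, 3.43, and 11.5 at day 0. Fzd5 was lower at each later day in each genotype, going from 181, 98.7, 144, and 146 CPM at day 0 to 17.9, 23.6, 34, and 14.2 at day 10. Notum was also highest at day 0 in each genotype, at 38.8, 48.3, 71.3, and 27.7 CPM in the same order.

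Dkk1 and Sfrp1 were highest in Eed null cells at day 10. Dkk1 had no UMI at days 0 and 4 in WT, Mtf2 null, and Jarid2 null cells (limits of 0.771 to 1.40 CPM) and read 36.5, 59.3, and 53.6 CPM in them at day 10, compared to 320.2 (interval 290.6 to 352) in Eed null cells. Sfrp1 read 151, 143, 126, and 881.5 CPM (Eed null interval 832 to 933) at day 10, where at day 0 the 4 genotypes lay between 188 and 204. Fzd2 was higher at day 10 than at day 0 in each genotype, with 25.4, 13.1, 6.23, and 10.6 CPM at day 0 and 157, 281, 149, and 263 at day 10.

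The other members with at least 100 UMIs are given by their range. Over the 16 libraries the receptors ran from 0.335 to 53 CPM (Fzd1), 11.3 to 114 (Fzd3), 1.54 to 73.2 (Fzd4), 0.335 to 13.3 (Fzd6), 43.3 to 216 (Fzd7), 1.34 to 30.6 (Fzd8), and 1.19 to 35.8 (Fzd10). Lrp6 ran from 54.8 to 200 CPM and Lrp5 from 7.16 to 25.4. Among factors and feedback genes Tcf7l1 ran from 67.3 to 221 CPM, Tcf7l2 from 13.3 to 108, Tcf7 from 9.26 to 38.03, Nkd1 from 0.771 to 55.1, Znrf3 from 11.1 to 28.3, and Lgr5 from 0 to 24.5. Sfrp2 (9.30 to 134), Dkk3 (1.15 to 15.7), and Wnt11 (0.396 to 26.9) complete the list, and the remaining 16 listed members had 25 to 99 UMIs in all cells together.

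**Figure D5:**
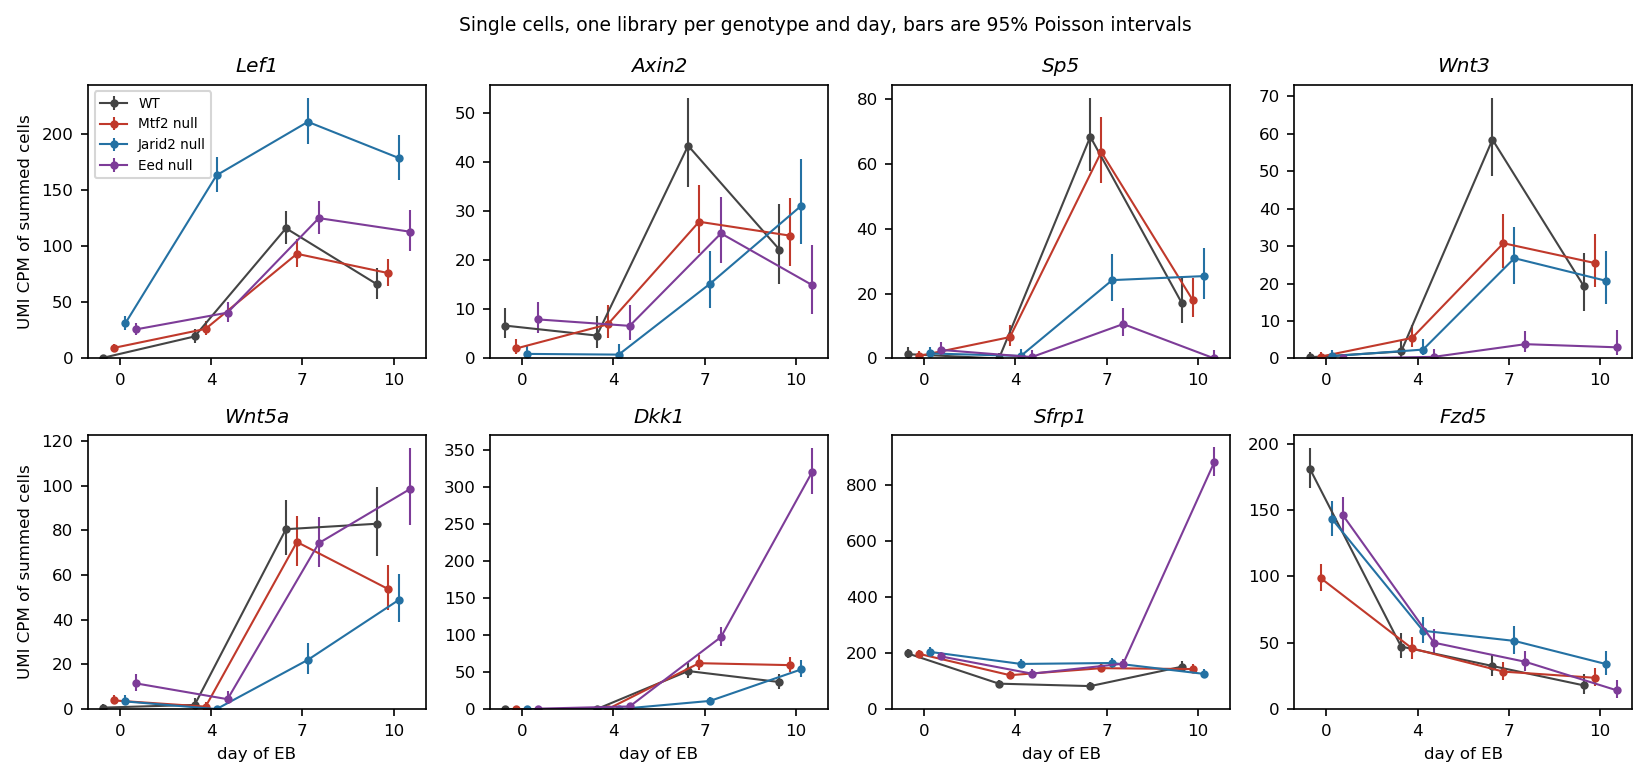
Summed UMI CPM of 8 members by day of EB for 4 genotypes, 1 library per point with 95% Poisson intervals, on linear axes. Sp5, Axin2, and Wnt3 peak at day 7 in WT cells (68.3, 43.3, and 58.4 CPM). Lef1 is highest in the Jarid2 null library on each day. Dkk1 and Sfrp1 reach 320.2 and 881.5 CPM in Eed null cells at day 10.

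The authors' 22 clusters place the members in different cells. These clusters were made from the same cells and genes, so the levels are a description. Of clusters with at least 40 cells, cluster 14 (190 cells, 158 of day 7, with T at 535 and Eomes at 535.5 CPM) had the highest level of Wnt3 (113 CPM), Sp5 (138), and Axin2 (44.8). Cluster 20 (49 cells, 44 of day 7, T at 616.4 CPM) had the highest level of Wnt5a (284.5 CPM), Lef1 (245), Nkd1 (69.7), Fzd10 (64.2), and Tcf7 (39.05). The ligand Wnt3 was at 41.8 CPM there, so the clusters with the highest T level held different ligands at their highest level.

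Cluster 15 (136 cells, Sox1 at 177 and Otx2 at 464 CPM) had the highest level of Fzd2 (335 CPM), Fzd3 (271), Sfrp2 (176), and Tcf7l1 (243). Cluster 21 (47 cells, Dab2 at 1170, Sox17 at 361, and Foxa2 at 211 CPM) had the highest level of Tcf7l2 (275 CPM), Fzd8 (86.2), Lgr5 (64.6), Lrp5 (59.8), Wnt11 (38.3), and Znrf3 (31.1). Cluster 13 (226 cells, 197 of them Eed null, Col1a1 at 396.5 and Hand1 at 352 CPM) had the highest level of Sfrp1 (840.5 CPM), Dkk1 (317), Fzd7 (212), Lrp6 (179), and Fzd1 (65.3). Since 193 of its cells are of day 10, the Eed null library of that day and the cluster cannot be told apart for these members. Cluster 4 (324 cells, Hand1 at 750.4 CPM) had the highest level of Fzd4 (107 CPM) and Dkk3 (21.5), and cluster 11 of Fzd6 (21.8). Fzd5 was highest in cluster 3 (184 CPM, 311 of 335 cells WT) and Notum in cluster 8 (86.8 CPM, 250 of 265 cells Jarid2 null), clusters that each hold mostly cells of 1 genotype.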

How the data were processed

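Directed libraries were made from RNA of monolayers after ribosomal RNA was depleted. Bulk EB libraries were made from RNA of EBs, with day 0 named as monolayer in its columns. Single cells were sorted into plates (SORT-seq). For the directed series the authors mapped reads with Bowtie2 to GRCm38, quantified them with Salmon, and deposited estimated counts per gene, which were rounded to whole numbers here. For bulk EBs the authors deposited signal values per gene, which were counts divided by DESeq2 size factors, and whole reads were recovered in 45 of 46 columns (100% of values within 0.02 of a whole read). For single cells the authors mapped with Bowtie2, counted with HTSeq, removed cells with few genes, and deposited UMI counts per gene and cell and a table of clusters.

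The members and lists were chosen with earlier results of these data known. Every member was described by role, and values per library are given for members called in undifferentiated cells with at least 1 CPM in the higher group, the 5 largest calls per null at 48 h, the 5 largest WT changes per direction to and from 24 h, members called in bulk EBs, and, in single cells, members with at least 100 UMIs (here by range where they are many) with their highest cluster of at least 40 cells. Groups follow the labels. The columns of the 2 libraries labelled Jarid2 null at 48 h of the endoderm series carry another hour in their names and were matched by the library number in the labels, on which that comparison rests.

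Directed counts were filtered by filterByExpr, scaled by TMM and tested in edgeR 4.0.16 (quasi-likelihood) in 1 fit per series over its 24 libraries, undifferentiated cells in 1 fit over both series. EB values were tested in limma 3.58.1 on log2 CPM with a prior count of 2, genes of at least 1 CPM in 4 samples, and day as a term. Single cells were summed per library or cluster, with exact Poisson intervals, and no doublets were called here. Fits were tested on simulated data. Alternatives were other size factors, no filter beyond 1 read, DESeq2 1.42.0, a block for replicate number, each library or day left out, each series alone, no term for day, edgeR on recovered EB reads, a prior count of 0.5, single cells thinned to 2500 UMIs, and the mean over cells. R was version 4.3.3 and Python 3.11.15, with pandas 2.3.3 and scipy 1.17.1 for tables and intervals, numpy 2.4.6, and matplotlib 3.10.9 for plots. Correlations of the deviations of same-numbered libraries from their group means were -0.18 to 0.27 in the mesoderm and -0.16 to 0.20 in the endoderm series, with 6 and 4 of 66 over 0.1, so the numbers were not taken to pair libraries.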

Additional observations from a re-analysis of the deposited data

Results flagged for a closer look

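Among 33 groups of 4 undifferentiated libraries, 2 held a library far from the other 3 by Dixon's ratio at its 95% critical value, and chance marks about 1 in 20 groups. Sfrp5 read 2.26 CPM in WT endoderm library 2 and 1.98 to 2.01 in the others, which leaves it far above every Mtf2 null library. Dkk3 read 1.59 CPM in Mtf2 null endoderm library 2 and 1.23 to 1.24 in the others, still below the lowest WT library (2.36).

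The change from undifferentiated cells to 24 h of the mesoderm series differed from WT for 3 members by an interaction term in edgeR. It was larger in Mtf2 null cells for Axin2 (1.22 on the log2 scale) and Fzd10 (1.41), and it went the other way in the libraries labelled Jarid2 null for Sfrp1 (-1.66). Axin2 and Fzd10 were each called in 2 of 8 fits without 1 library and Sfrp1 in 3 of 8.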

How the results depend on the processing

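Several counts of called members moved with the processing. Leaving out 1 library at a time gave, for Mtf2 null cells at 5, 24, and 48 h, 3 to 5, 2 to 3, and 5 to 7 calls in the mesoderm and 4 to 6, 2 to 6, and 7 to 9 in the endoderm series. For the libraries labelled Jarid2 null it gave 0 to 0, 2 to 3, and 0 to 2 in the mesoderm and 0 to 0, 0 to 0, and 0 to 1 in the endoderm series (1 without WT 48 h endoderm library 1). WT changes to 5 h, to 24 h, and from 24 to 48 h gave 3 to 6, 7 to 9, and 7 to 9, and toward endoderm 2 to 3, 2 to 6, and 6 to 7. Interactions gave 0 to 2 for either null in the mesoderm and 0 to 0 in the endoderm series, undifferentiated cells 6 to 9 (Mtf2 null) and 1 to 1 (Jarid2 null), and bulk EBs without 1 day 3 to 10 (Mtf2 null), 2 to 6 (Jarid2 null), and 0 to 6 (Eed null).

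Without a filter beyond 1 read, calls went from 5 to 8 (Mtf2 null, endoderm 5 h), from 0 to 2 (Jarid2 null, endoderm 48 h), from 1 to 3 (mesoderm interaction, Jarid2 null), and from 6 to 3 (bulk EBs, Eed null). DESeq2 called 3 in place of 5 (Mtf2 null, endoderm 24 h), 1 in place of 0 (Jarid2 null, endoderm 48 h), 2 in place of 1 (mesoderm interaction, Jarid2 null), and 4 in place of 7 (WT endoderm to 24 h). In undifferentiated cells the mesoderm series alone gave 6 and the endoderm series alone 4 calls in place of 10 for Mtf2 null cells, and 0 and 0 in place of 1 for Jarid2 null, where the summed same-numbered libraries also gave 0. With no term for day, bulk EB calls were 2 (Mtf2 null), 1 (Jarid2 null), and 1 (Eed null) in place of 6 each. The smaller counts with fewer libraries come from fits with fewer samples, and the cause of the others was not tested.

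With a replicate block the count for the libraries labelled Jarid2 null at 48 h of the endoderm series was 1 in place of 0. Of single gene values under the block, 102 kept their call and 3 lost it.

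Of gene values over all alternatives, 735 of 929 in the directed series and 110 of 162 in bulk EBs kept their call and the rest lost it. In single cells 46 of 56 values moved by less than their counting interval. Directed depth sets a floor of 3 reads, so folds of Dkk1, Wnt3, Wnt8a, and Sp5 against groups near 0 are bounds or have wide intervals. With 2 libraries per group, which may be technical, and 1 EB sample per line and day, differences between cultures cannot be told apart from those between genotypes.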
